A study of Mus musculus with 6 samples.

Results

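Glycolysis splits glucose into pyruvate through a chain of cytosolic enzymes, and lactate dehydrogenase then turns pyruvate into lactate. Most steps can be run by isozymes from separate genes. Hypoxia-inducible factor (HIF) is a transcription factor whose alpha subunit, encoded by Hif1a among others, is hydroxylated by the oxygen-using EGLN enzymes and then destroyed through VHL. When oxygen is short the subunit persists, pairs with ARNT, and raises the genes of glycolysis together with genes for acid export, mitophagy, collagen modification and its own EGLN brakes. Pluripotent stem cells of the mouse are known for a high glycolytic rate. BACH1, a heme-binding transcription factor, is known from lung cancer cells to raise transcription of Hk2 and Gapdh.

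The 39 genes described here were taken by symbol from the 18518 gene symbols of the deposited table, and all 39 had a row. They comprise 18 glycolytic enzymes, 5 genes of glucose and lactate transport or of the switches around glycolysis, Hif1a itself, and 15 HIF targets outside glycolysis. The question put here is how their transcript levels compare between BACH1-KO and WT cells, and whether the enzymes moved like the other HIF targets. RNA sequencing covered 6 libraries of the mouse embryonic stem cell line E14Tg2A, 3 WT and 3 BACH1-KO, all kept for 2 days with LIF, the cytokine of self-renewal, in medium with fetal bovine serum. The knockout cells were made with CRISPR/Cas9, puromycin selection and sorting of single-cell clones. The labels do not say whether the 3 knockout libraries come from 1 clone or whether the libraries of a genotype are separate cultures, so each p-value measures only how these libraries vary, and that variation may be technical. The labels name normal culture only, and no group was kept at low oxygen.

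Levels are in FPKM, which divides the fragments of a gene by its transcript length and by the size of the library, so genes can be set side by side per length. Bach1 transcript was at 7.97, 8.39 and 8.47 FPKM in WT and 10.5, 10.4 and 10.4 FPKM in BACH1-KO, and a transcript level does not show whether the coding sequence was edited. Of 10 markers of pluripotent cells, among them Pou5f1 and Nanog, all were expressed in both genotypes. Their summed level ran from 10761 to 11533 FPKM over the WT libraries and from 6924 to 7177 FPKM over the BACH1-KO libraries. By the limma test described below 9 were lower and 1 higher, where 39.7% of all tested genes were lower and 37.3% higher. Of 10 markers of fibroblast feeder cells only Thy1 and Pdgfrb had a mean of at least 1 FPKM. By the means Thy1 fell from 18.8 to 10.2 FPKM and Pdgfrb from 3.78 to 1.31 FPKM. The other markers stayed under 1 FPKM in every library and moved both ways. Dcn, Col1a2, Col3a1, Lum, Postn and Twist2 were higher in BACH1-KO, and Col1a1 and Pdgfra were lower. Col3a1, Lum and Twist2 were listed at 0 in every WT library. All 15 markers of hepatocytes rose, beside 37.3% of all tested genes. Their summed level lay between 1.44 and 6.79 FPKM in WT and between 839 and 869 FPKM in BACH1-KO. Cyp3a11 was listed at 0 in every WT library. Each of the 15 had a WT mean under 1 FPKM and passed the filter of a mean of 1 FPKM only through BACH1-KO. A tested marker of this kind could only be higher there, so the count adds nothing to the levels. Genes of chromosome 6 had a median log2 fold change of 0.31 over 541 tested genes, against -0.03 over the 11083 tested genes of other chromosomes. The first WT column held the lowest WT value for 29 of the 39 members, so results without it are given below. In bulk RNA, fewer cells of a kind and less RNA per cell cannot be told apart.

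A promoter window was given by RefSeq (GRCm38.p6, the assembly also called mm10) for 37 of the 39 genes, 53 windows in all. HIF binds a short core that reads ACGTG or GCGTG, and either word was searched on both strands in the 250 bases before each start, with overlapping matches counted once. At least 1 core lay in 41 of the 53 windows (77.4%), against 38.6% of all 32851 windows. The members were chosen as genes of glycolysis and HIF targets, and some windows of the same gene overlap. No match for base content was made either, so this contrast is only a description. By role the share was 75.9% of 29 enzyme windows, 85.7% of 7 transport and switch windows and 75.0% of 16 windows of other HIF targets. The palindrome CACGTG, which contains the HIF core and is the E-box that MYC and related factors bind, was in 9.43% of the members' windows and 6.02% of all. The BACH1 and NRF2 element TGACNNNGC was in 7.55% and 10.2%. A match is a description of the letters and no evidence of binding. The windows of the genes that the results turn on are printed below in the direction of the gene, each holding no annotated exonic base, with each HIF core in capitals (whole palindromes where 2 cores overlap). Those of Ldha (chr7:46845554-46845803, plus strand) and Ldhb (chr6:142507958-142508207, minus strand) are shown for the isozymes that moved apart. The Ldha window lies inside the annotated gene, before an internal start, and is 1 of 2 windows given for Ldha. Those of Pgk1 (chrX:106186850-106187099, plus strand) and Hk2 (chr6:82774455-82774704, minus strand) are shown for enzymes that fell. Those of Egln3 (chr12:54203875-54204124, minus strand) and Ddit4 (chr10:59951835-59952020, minus strand) belong to the HIF targets with the lowest and the highest log2 fold change.
Ldha: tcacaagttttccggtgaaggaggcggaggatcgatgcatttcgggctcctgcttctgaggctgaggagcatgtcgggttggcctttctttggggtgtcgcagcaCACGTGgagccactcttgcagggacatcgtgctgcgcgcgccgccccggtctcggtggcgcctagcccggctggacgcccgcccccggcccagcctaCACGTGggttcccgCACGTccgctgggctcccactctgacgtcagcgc
Ldhb: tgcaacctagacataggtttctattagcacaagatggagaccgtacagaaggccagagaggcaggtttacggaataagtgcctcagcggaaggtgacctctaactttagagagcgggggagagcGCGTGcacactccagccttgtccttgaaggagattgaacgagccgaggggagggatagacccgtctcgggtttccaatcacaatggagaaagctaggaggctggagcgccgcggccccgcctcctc
Pgk1: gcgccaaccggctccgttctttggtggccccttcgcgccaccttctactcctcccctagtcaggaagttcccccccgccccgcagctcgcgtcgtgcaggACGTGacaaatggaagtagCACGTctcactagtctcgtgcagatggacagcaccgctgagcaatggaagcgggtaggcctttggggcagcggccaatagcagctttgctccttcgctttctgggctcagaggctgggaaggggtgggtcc
Hk2: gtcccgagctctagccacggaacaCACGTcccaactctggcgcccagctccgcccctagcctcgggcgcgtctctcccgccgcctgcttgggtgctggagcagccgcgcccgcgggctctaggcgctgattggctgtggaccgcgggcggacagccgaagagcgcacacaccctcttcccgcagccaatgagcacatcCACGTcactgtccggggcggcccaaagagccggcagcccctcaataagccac
Egln3: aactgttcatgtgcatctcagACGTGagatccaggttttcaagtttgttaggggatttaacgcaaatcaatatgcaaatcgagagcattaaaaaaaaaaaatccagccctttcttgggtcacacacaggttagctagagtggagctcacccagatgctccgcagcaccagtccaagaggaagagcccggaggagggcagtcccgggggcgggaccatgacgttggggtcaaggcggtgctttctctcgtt
Ddit4: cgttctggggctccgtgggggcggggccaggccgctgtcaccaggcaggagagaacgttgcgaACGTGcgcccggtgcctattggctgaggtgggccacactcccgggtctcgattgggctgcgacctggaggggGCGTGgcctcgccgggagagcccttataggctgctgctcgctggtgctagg
The printed Ldha window held 3 cores, 2 of them inside CACGTG palindromes, and the other Ldha window held 1 core and no palindrome. The Ldhb window held 1 core. Pgk1, Hk2 and Ddit4 held 2 each and Egln3 held 1, so genes that rose and genes that fell both carried the word.

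Transcripts of glycolysis were lower in the BACH1-KO cells at nearly every step. Of the 18 enzymes 15 fell, 2 rose and 1 did not pass the test, where a gene passes when limma on log2(FPKM + 1) gives a Benjamini-Hochberg adjusted p below 0.05. Over all 12187 tested genes 39.7% fell, 37.3% rose and 77.0% passed in either direction, so a pass alone says little and the direction is the informative part. The median log2 fold change was -0.67 for the enzymes and -0.01 for all tested genes. Tested against a fold change of 1.5 in place of no change, 7 of the 18 enzymes were lower and 2 higher, against 8.16% lower and 10.9% higher of all tested genes. The summed level of the 18 enzymes was 13167, 14680 and 14639 FPKM in WT and 9302, 9537 and 9430 FPKM in BACH1-KO. As a share of all FPKM this was 1.68% to 1.83% in WT and 1.21% to 1.25% in BACH1-KO, with no overlap.

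**Figure D1:**
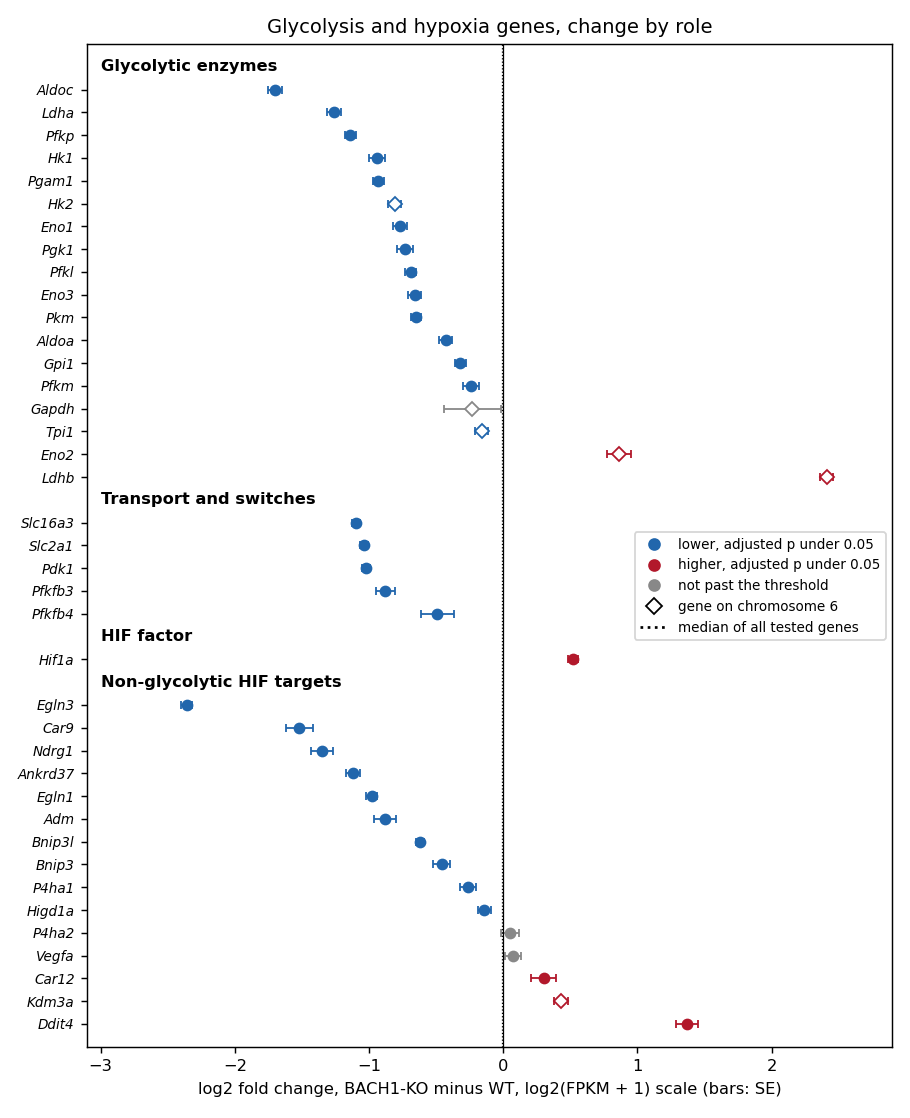
Log2 fold change (BACH1-KO minus WT, log2(FPKM + 1) scale, horizontal axis) of each of the 39 genes by role, with bars for the SE, colours for the limma call and open diamonds for genes on chromosome 6. Most points lie left of 0, and Ldhb at 2.41, Ddit4 at 1.37 and Eno2 at 0.86 stand to the right.

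The entry steps, where glucose is phosphorylated and committed, fell by close to a factor of 2. Hk1, the widely expressed hexokinase, was at 25.3, 27.0 and 25.1 FPKM in WT and 12.8, 14.1 and 12.1 FPKM in BACH1-KO (log2 fold change -0.94, SE 0.06, limma adjusted p = 2.71e-06). Hk2, the inducible hexokinase, was at 16.9, 16.6 and 15.4 FPKM in WT and 8.79, 8.54 and 9.16 FPKM in BACH1-KO (log2 fold change -0.81, SE 0.05, limma adjusted p = 2.94e-06). For both genes every knockout library lay below every WT library. Gpi1, which interconverts glucose and fructose phosphates, fell less, from 249 ± 14.5 to 199 ± 4.59 FPKM (SD, n = 3 here and below), and 18.6% of the distinct 50-base words of its GENCODE transcripts occur in other genes too, whose reads can be confused with its own.

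Phosphofructokinase, the main control point of the pathway, is made by 3 genes. Pfkp, the platelet type, was at 122, 130 and 134 FPKM in WT and 57.3, 57.9 and 58.5 FPKM in BACH1-KO (log2 fold change -1.14, SE 0.04, limma adjusted p = 1.37e-07). Pfkl, the liver type, fell from 130 ± 6.50 to 80.2 ± 1.08 FPKM, and Pfkm, the muscle type, from 24.7 ± 1.62 to 20.7 ± 0.969 FPKM. The unequal falls shifted the makeup of the step. Pfkp supplied 45.4% ± 0.581 of its summed FPKM in WT and 36.5% ± 0.330 in BACH1-KO, while the share of Pfkl went from 45.9% ± 0.353 to 50.5% ± 0.407 and that of Pfkm from 8.71% ± 0.242 to 13.0% ± 0.435. None of these 3 shares overlapped between the genotypes.

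Aldolase splits the sugar bisphosphate, and Tpi1 interconverts its products. Aldoa, the main aldolase, was at 1883, 2113 and 2120 FPKM in WT and 1504, 1497 and 1532 FPKM in BACH1-KO, a log2 fold change of -0.43. Aldoc, the aldolase typical of brain, had the lowest log2 fold change of the 18 enzymes, -1.70 (SE 0.05, limma adjusted p = 5.81e-08). It was at 77.0, 84.0 and 86.6 FPKM in WT and 24.6, 24.1 and 25.4 FPKM in BACH1-KO, 3.34 times lower, and only 81 of the 12187 tested genes had a lower value. The summed FPKM of Aldoa and Aldoc followed Aldoa, which made up 96.1% of that sum in WT and 98.4% in BACH1-KO. The sum holds these 2 members only, not every aldolase gene. Tpi1, the triose phosphate isomerase, fell little, from 690 ± 51.7 to 615 ± 8.25 FPKM (log2 fold change -0.16, limma adjusted p = 0.0208). Its call was lost without the second WT column (adjusted p = 0.0732), the third (0.0653), the first knockout column (0.0570) or the third (0.0626), and its log2 fold change was 0.10 after quantile normalization (adjusted p = 0.0661).

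Gapdh, which oxidises glyceraldehyde phosphate and is often used as a reference gene, was the enzyme that did not pass. Its level was 575, 636 and 339 FPKM in WT and 432, 470 and 375 FPKM in BACH1-KO. The third WT library lay below all 3 knockout libraries, and the other WT libraries lay above them. The log2 fold change was -0.23 with a 95% interval of -0.72 to 0.26 (limma adjusted p = 0.341). Without the third WT column it was -0.51 (adjusted p = 0.00168), and without any other library it stayed short of the threshold. In the GENCODE annotation 58.4% of the distinct 50-base words of Gapdh transcripts also occur in transcripts of other genes, 218 of them. How such reads were shared out when the levels were made is not stated in the labels.

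The lower steps fell together. Pgk1, the first ATP-forming enzyme (chromosome X, 106187100 to 106203699), was at 1877, 2212 and 2241 FPKM in WT and 1252, 1284 and 1271 FPKM in BACH1-KO (log2 fold change -0.73, SE 0.06). Pgam1, phosphoglycerate mutase, fell from 803 ± 34.0 to 422 ± 10.6 FPKM, a log2 fold change of -0.93. Eno1, the general enolase, fell from 2213 ± 170 to 1293 ± 9.48 FPKM, and Pkm, pyruvate kinase, from 2148 ± 103 to 1372 ± 17.5 FPKM. All knockout values of these 4 genes lay below all WT values. Of their 50-base words 68.0% (Pgk1), 41.5% (Pgam1), 49.5% (Eno1) and 23.7% (Pkm) also occur in other annotated genes, so their exact levels are uncertain. The 7 enzymes with under 5% of such words had a median log2 fold change of -0.81, with 6 lower and 1 higher, a split added after the data were seen.

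The minor enolases moved in opposite directions. Eno3, the muscle enolase, fell from 25.3 ± 1.77 to 15.7 ± 0.217 FPKM. Eno2, the neuronal enolase, rose from 2.83, 3.34 and 3.42 FPKM in WT to 6.09, 6.44 and 7.35 FPKM in BACH1-KO (log2 fold change 0.86, SE 0.09, limma adjusted p = 3.45e-05). Even so it supplied only 0.504% ± 0.0499 of the enolase FPKM in BACH1-KO, after 0.142% ± 0.00359 in WT.

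**Figure D2:**
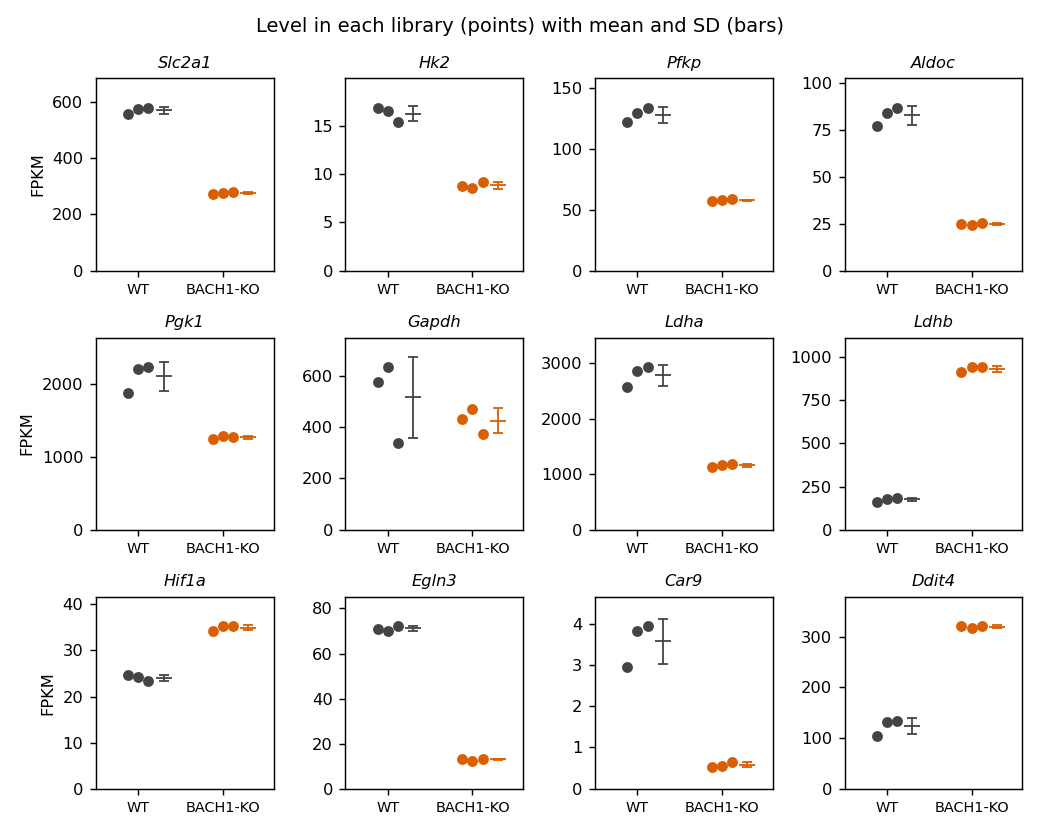
FPKM (vertical axes, from 0) of 12 of the genes in the 3 WT and 3 BACH1-KO libraries as points, with mean and SD beside them. The genotypes are apart for every gene shown other than Gapdh, where the WT libraries run from 339 to 636 FPKM.

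The subunits of lactate dehydrogenase showed the sharpest contrast. Ldha encodes the M subunit and is the classical HIF and MYC target of the pathway (chromosome 7, 46841475 to 46855627). It was at 2569, 2848 and 2931 FPKM in WT and 1124, 1171 and 1175 FPKM in BACH1-KO, 2.41 times lower (log2 fold change -1.26, SE 0.05, limma adjusted p = 2.40e-07). Ldhb encodes the H subunit, typical of heart and other oxidative tissue (chromosome 6, 142490249 to 142507957). It was at 163, 180 and 181 FPKM in WT and 911, 942 and 943 FPKM in BACH1-KO, 5.34 times higher (log2 fold change 2.41, SE 0.05, limma adjusted p = 1.16e-08). Of the 12187 tested genes 12078 had a lower log2 fold change than Ldhb. Of the 50-base words of Ldhb 21.0% also occur in 1 other annotated gene, and of those of Ldha 10.4% occur in 14, so both levels carry that uncertainty. Within the step the share of Ldhb went from 5.95%, 5.95% and 5.82% in WT to 44.8%, 44.6% and 44.5% in BACH1-KO. The summed level of both genes was 2731, 3029 and 3112 FPKM in WT and 2036, 2113 and 2117 FPKM in BACH1-KO. That sum was 1.42 times lower in BACH1-KO by the means. The hexokinase makeup, by contrast, overlapped between the genotypes, with Hk2 at 38.0% to 40.1% in WT and 37.7% to 43.0% in BACH1-KO.

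**Figure D3:**
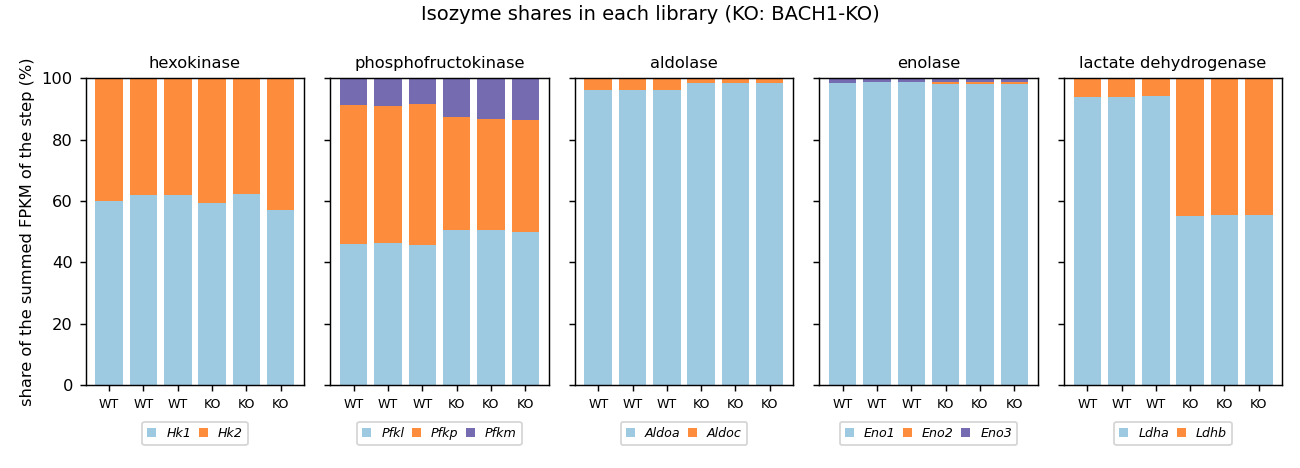
Share of each isozyme in the summed FPKM of the members of its step (percent, vertical axis, stacked to 100) in each of the 6 libraries. The Ldhb share is near 6% in WT and near 45% in BACH1-KO, while the hexokinase bars look alike in both genotypes.

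The 5 members for uptake, export and the switches at either end of glycolysis all fell. Their median log2 fold change was -1.02, and over all tested genes 39.7% fell. Against a fold of 1.5, 4 of the 5 were lower, beside 8.16% of all tested genes. The glucose transporter gene Slc2a3 is not a member and rose, as given below. Slc2a1 encodes the glucose transporter GLUT1 and was at 557, 576 and 580 FPKM in WT and 273, 278 and 281 FPKM in BACH1-KO (log2 fold change -1.04, SE 0.03, limma adjusted p = 5.26e-08). Slc16a3 encodes the lactate exporter MCT4 and was at 174, 181 and 183 FPKM in WT and 83.5, 81.9 and 82.9 FPKM in BACH1-KO (log2 fold change -1.10, SE 0.03, limma adjusted p = 5.26e-08). Pdk1 encodes a kinase that shuts off pyruvate dehydrogenase, and it was at 92.4, 94.2 and 93.3 FPKM in WT and 46.5, 44.4 and 45.3 FPKM in BACH1-KO. These 3 genes were close to 2 times lower with narrow spreads in both genotypes. Pfkfb3 and Pfkfb4 make the sugar phosphate that activates phosphofructokinase, and they were low in both genotypes. Pfkfb3 fell from 7.87 ± 0.200 to 3.82 ± 0.394 FPKM and Pfkfb4 from 1.74 ± 0.404 to 0.944 ± 0.0898 FPKM. Pfkfb4 passed the filter of a mean of 1 FPKM only through WT, so once tested it could only be lower.

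Hif1a itself moved the other way from most of its targets. Its level was 24.7, 24.2 and 23.4 FPKM in WT and 34.3, 35.3 and 35.2 FPKM in BACH1-KO, with all knockout values above all WT values (log2 fold change 0.52, SE 0.04, limma adjusted p = 4.90e-06). HIF is controlled mainly at the level of protein stability, which these data do not measure. Of 15 other genes of the HIF machinery 6 rose, 6 fell and 3 did not pass, with a median log2 fold change of -0.10. That is 40.0% each way, near the 37.3% higher and 39.7% lower of all tested genes. Rbx1, a RING subunit of the VHL ubiquitin ligase, fell from 96.1 ± 1.16 to 58.8 ± 1.12 FPKM. Cul2, its scaffold, fell from 49.6 ± 0.107 to 37.3 ± 1.44 FPKM. Other parts of that ligase, added after their values were seen, moved both ways. Vhl rose from 15.8 ± 0.301 to 21.4 ± 1.11 FPKM and Tceb1 from 65.0 ± 3.34 to 83.5 ± 0.504 FPKM. Tceb2 fell from 948 ± 82.2 to 774 ± 35.3 FPKM. Hif1an, the asparagine hydroxylase that blocks coactivator binding, rose from 6.14 ± 0.125 to 8.93 ± 0.168 FPKM. Epas1, which encodes the HIF-2 alpha subunit, fell from 6.29 ± 0.153 to 3.73 ± 0.327 FPKM.

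Of the 15 HIF targets outside glycolysis 10 fell, 3 rose and 2 did not pass, with a median log2 fold change of -0.46. Against a fold of 1.5, 6 were lower and 1 higher, beside 8.16% lower and 10.9% higher of all tested genes. Their log2 fold changes ran from -2.36 to 1.37, and those of the enzymes from -1.70 to 2.41. The median of the enzymes was lower by 0.22 than that of these targets. The SD of the medians between libraries, combined over both lists as if they were independent, was 0.103. Both lists come from the same 6 libraries, and this SD holds no spread between genes, so it is no measure of the gap's uncertainty. The mean log2(FPKM + 1) of the enzymes was 7.71, 7.82 and 7.78 in WT and 7.28, 7.32 and 7.31 in BACH1-KO, and that of the other HIF targets 5.10, 5.26 and 5.28 in WT and 4.72, 4.71 and 4.71 in BACH1-KO. Both groups were thus lower in every knockout library than in any WT library. By these means the enzymes fell no further than the other HIF targets, so the gap in medians depends on the summary used. Summed FPKM of the other HIF targets, by contrast, overlapped, from 883 to 1012 FPKM over the WT libraries and from 878 to 890 FPKM over the BACH1-KO libraries, since Ddit4 is among the most abundant of them and rose.

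**Figure D4:**
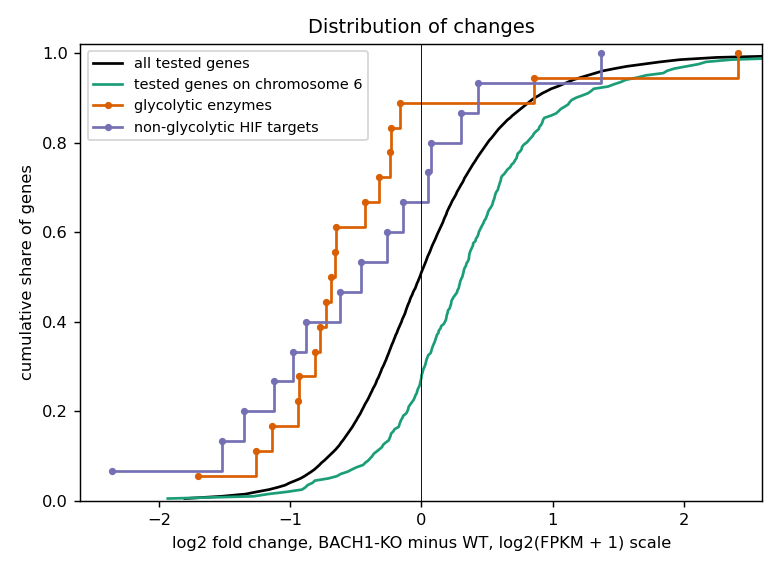
Cumulative share of genes (vertical axis) by log2 fold change (BACH1-KO minus WT, log2(FPKM + 1) scale) for all tested genes, the tested genes of chromosome 6, the 18 enzymes and the 15 other HIF targets. The enzyme and HIF target curves lie left of all tested genes over most of their range, and the curve of chromosome 6 lies to the right.

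Both oxygen-sensing brakes of HIF among the members fell, and Egln3 had the lowest log2 fold change of all 39 genes on the log2(FPKM + 1) scale. Egln3, the prolyl hydroxylase PHD3 and itself a HIF target (chromosome 12, 54178981 to 54203860), was at 70.8, 70.2 and 72.2 FPKM in WT and 13.3, 12.5 and 13.3 FPKM in BACH1-KO. The level was thus 5.46 times lower (log2 fold change -2.36, SE 0.04, limma adjusted p = 7.00e-09), and only 18 tested genes had a lower value. Egln1, the main HIF prolyl hydroxylase PHD2, was at 29.8, 30.9 and 32.2 FPKM in WT and 15.6, 14.7 and 15.1 FPKM in BACH1-KO (log2 fold change -0.98, SE 0.04). Neither gene overlapped between the genotypes.

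Other targets with a steep fall have varied roles. Car9, a cell-surface carbonic anhydrase used as a hypoxia marker, was at 2.95, 3.82 and 3.94 FPKM in WT. In BACH1-KO it was at 0.532, 0.564 and 0.658 FPKM, 6.11 times lower by the means (log2 fold change -1.52, SE 0.10). Car9 passed the filter of a mean of 1 FPKM only through WT, so once tested it could only be lower. The added 1 shrinks the log2 fold change of a gene this low. With 0.1 in its place the log2 fold change was -2.42 for Car9 and -2.44 for Egln3. Ndrg1, a stress-induced growth regulator, fell from 48.7, 59.0 and 60.5 FPKM to 21.3, 21.6 and 21.0 FPKM, 2.63 times lower. Ankrd37, an ankyrin repeat gene, fell from 49.8 ± 2.46 to 22.3 ± 1.26 FPKM. Adm, the vasodilator peptide adrenomedullin, fell from 15.0 ± 1.06 to 7.73 ± 0.917 FPKM. Of the exonic bases of Ankrd37 26.4% are shared with genes on the opposite strand, Lrp2bp and Ufsp2, and the library kit named in the labels is not known to keep strand.

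The mitophagy receptors fell moderately. Bnip3 went from 368 ± 31.3 to 268 ± 3.32 FPKM (log2 fold change -0.46) and its relative Bnip3l from 72.8 ± 1.21 to 46.9 ± 0.720 FPKM (log2 fold change -0.62). Other annotated genes hold 20.7% of the 50-base words of Bnip3 and 24.4% of those of Bnip3l. P4ha1, a catalytic subunit of collagen prolyl hydroxylase, fell from 38.3 ± 3.28 to 31.8 ± 0.747 FPKM, while its partner isoform P4ha2 was at 27.5, 31.4 and 32.1 FPKM in WT and 29.3, 32.5 and 32.5 FPKM in BACH1-KO. The interval of the P4ha2 log2 fold change was -0.11 to 0.20 (limma adjusted p = 0.515). Higd1a, a mitochondrial inner membrane protein, was at 49.7 ± 3.09 and 45.1 ± 0.856 FPKM (log2 fold change -0.14, limma adjusted p = 0.0313). That call was lost under median-of-ratios scaling (adjusted p = 0.0711), quantile normalization (0.325) and a constant prior variance (0.0570), and when any library other than the first WT column was left out (0.0590 to 0.106).

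Vegfa, the angiogenic growth factor and best known HIF target, did not pass. It was at 24.8, 28.4 and 29.2 FPKM in WT and 27.9, 29.1 and 29.7 FPKM in BACH1-KO, and the groups overlapped. The interval of its log2 fold change was -0.07 to 0.22 (limma adjusted p = 0.305).

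The HIF targets that rose were Ddit4, Kdm3a and Car12. Ddit4 encodes REDD1, an inhibitor of mTORC1 that is also a known target of ATF4 and p53 (chromosome 10, 59949669 to 59951834). It was at 105, 132 and 134 FPKM in WT and 321, 317 and 321 FPKM in BACH1-KO, 2.59 times higher (log2 fold change 1.37, SE 0.08, limma adjusted p = 2.08e-06). Kdm3a, a histone lysine demethylase, was at 19.3, 21.3 and 22.0 FPKM in WT and 28.4, 28.3 and 28.5 FPKM in BACH1-KO (log2 fold change 0.43, SE 0.05). Car12, another membrane carbonic anhydrase, rose from 4.55 ± 0.678 to 5.80 ± 0.119 FPKM (log2 fold change 0.30, limma adjusted p = 0.0155), a call lost after quantile normalization (adjusted p = 0.0763). The known regulators Atf4 and Myc moved as well, Atf4 from 91.7 ± 5.88 to 419 ± 11.7 FPKM and Myc from 12.4 ± 3.96 to 1.44 ± 0.319 FPKM. Their part in the changes of the 39 genes was not tested.

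Position on the genome moved with the direction of change. Of the 6 members on chromosome 6, Ldhb, Eno2 and Kdm3a rose, Hk2 and Tpi1 fell and Gapdh did not pass. Of the 33 members elsewhere 28 fell, 3 rose (Hif1a, Ddit4 and Car12) and 2 did not pass. Across the chromosome 59.3% of 541 tested genes rose and 17.6% fell, against 36.0% and 41.1% of the tested genes on other chromosomes. With the members of chromosome 6 left out, the enzymes had 13 lower and 0 higher, as Ldhb and Eno2 are the enzymes that rose. The log2 fold change of Ldhb was 2.41, against a median of 0.31 on its chromosome. The part of the chromosome in these changes was not tested.

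One WT library stood apart for these genes. In the first WT column 29 of the 39 members had the lowest of the 3 WT values, against 37.5% of all tested genes, and their median difference from the mean of the other WT libraries was -0.14 on the log2(FPKM + 1) scale, where all tested genes had 0.00. This was seen in 14 of the 18 enzymes. Without that column 15 enzymes were lower and 2 higher, with a median log2 fold change of -0.71, and of the other HIF targets 10 were lower and 3 higher. Of all 39 members 30 fell, 6 rose and 3 did not pass, beside 39.7% lower and 37.3% higher of all tested genes. The genotypes did not overlap for 36 members, against 79.3% of tested genes, 40.9% with BACH1-KO below and 38.4% with it above.

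Further genes of glycolysis were listed apart from the members. They rose about as often as they fell, with 9 of 22 tested higher, 8 lower and 5 not past. Those shares, 40.9% and 36.4%, lie near those of all tested genes (37.3% and 39.7%), and the median log2 fold change was 0.05. Slc16a1, the lactate transporter MCT1, fell from 61.3 ± 1.99 to 39.7 ± 1.10 FPKM, and Fbp2, the muscle fructose bisphosphatase of gluconeogenesis, from 11.3 ± 1.52 to 3.54 ± 0.0888 FPKM. Slc2a3, the glucose transporter GLUT3, chosen after its values were seen, rose where Slc2a1 fell, from 528, 575 and 573 FPKM to 674, 676 and 675 FPKM (log2 fold change 0.27, limma adjusted p = 2.26e-04). Fbp1, the liver fructose bisphosphatase, rose from 0.272 ± 0.206 to 6.96 ± 0.860 FPKM. It rose beside the 15 hepatocyte markers given above, whose part in this rise was not tested.

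At the door of the mitochondrion 9 of 13 tested genes of pyruvate entry fell, 2 rose and 2 did not pass. That is 69.2% lower and 15.4% higher, beside 39.7% and 37.3% of all tested genes, and the median log2 fold change was -0.27. Pdp2, a phosphatase that switches pyruvate dehydrogenase on, fell from 8.78 ± 0.861 to 3.76 ± 0.0435 FPKM, and Pdk3, a kinase with the opposite effect, from 31.8 ± 1.19 to 22.2 ± 0.580 FPKM. Dlat, the acetyltransferase of the complex, fell from 23.0 ± 0.421 to 17.2 ± 0.0950 FPKM, and Mpc1, a subunit of the mitochondrial pyruvate carrier, rose from 22.2 ± 0.828 to 33.3 ± 1.53 FPKM.

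Among 30 tested HIF targets that are not members 20 fell, 7 rose and 3 did not pass. That is 66.7% lower and 23.3% higher, beside 39.7% and 37.3% of all tested genes. The median log2 fold change of the 30 was -0.39, beside -0.46 for the 15 members. Plod1, a collagen lysyl hydroxylase, fell from 30.1 ± 0.537 to 12.9 ± 0.201 FPKM and Lonp1, a mitochondrial protease, from 87.0 ± 4.07 to 39.5 ± 0.509 FPKM. Stc2, a secreted glycoprotein that ATF4 also induces, rose from 7.26 ± 0.793 to 52.8 ± 1.97 FPKM, and Gys1, the muscle glycogen synthase, from 9.04 ± 0.592 to 33.4 ± 0.402 FPKM. In the list of other regulators Stat3 fell from 23.2 ± 1.23 to 8.02 ± 0.346 FPKM. Foxk2, a forkhead factor linked to glycolysis, fell from 19.7 ± 0.703 to 13.3 ± 0.521 FPKM. Of the 10 in that list 6 were lower, 2 higher and 2 not past, beside 39.7% lower and 37.3% higher of all tested genes.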

How the data were processed

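RNA was sequenced from 3 WT and 3 BACH1-KO libraries with an Illumina TruSeq kit, per the labels' protocols. The deposited table holds FPKM per gene symbol, made by the authors with Cufflinks on mm10, per the submitters' processing notes. Versions, aligner and annotation were not stated there or in the labels. FPKM is relative to the whole library, so genes that gain much take from the value of every other gene. Read counts were not used and the depth is unknown. From steps in values under 0.1 FPKM, the libraries had relative depths of 1.00, 1.10 and 1.06 (WT) and 1.17, 1.18 and 1.01 (BACH1-KO).

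Columns name the genotype but match no single title, so each served as a replicate without pairing. All 6 were used, and 23 rows with a number for a symbol (0.0987% of FPKM) were left out. Log2(FPKM + 1) of the 12187 genes whose mean reached 1 FPKM was fitted with limma 3.58.1 (R 4.3.3, lmFit, eBayes with trend), two-sided, Benjamini-Hochberg adjusted over all of them, checked on simulated data. All 39 members passed the filter. Car9 and Pfkfb4, with BACH1-KO means of 0.585 and 0.944 FPKM, did so only through WT, so their tests could only point lower. Alternatives were a pseudocount of 0.1, no filter, a filter at 5 FPKM, median-of-ratios scaling, quantile normalization, a constant prior variance, a test against a fold of 1.5 (treat), and leaving out each library. Intervals are 95%, from the moderated SE. Lists are described by counts and medians, with no test of a list.

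All members and Bach1 are named, and from each further pathway list the genes that passed with the lowest adjusted p, at most 4 a list, of which 1 is not reported here. Any other name was picked with its values in view. Members and lists were chosen with earlier results of these data known. Positions, exon overlaps and shared 50-base words are from GENCODE M21 (GRCm38), promoter windows from RefSeq (GRCm38.p6).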

Additional observations from a re-analysis of the deposited data

How the results depend on the processing

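Over 13 alternatives (12 for Eno2, Car9 and Pfkfb4, not tested at a mean of 5 FPKM) 21 of the 39 members kept direction and call, and 13 more lost the call only against a fold of 1.5. The other 5 are Tpi1, Gapdh, Car12, P4ha2 and Higd1a. Tpi1 had a log2 fold change of 0.10 after quantile normalization and P4ha2 one of -0.02 without the first WT column, where neither passed. Against a fold of 1.5, 1325 genes were higher and 994 lower, of the enzymes 7 lower, and of the other HIF targets 6 lower and 1 higher. Keeping only genes with a mean of 5 FPKM left 2942 higher among fewer tested, 1 enzyme was higher, and the HIF target median was -0.36, the enzymes lying -0.33 from it. Quantile normalization gave medians of -0.51 (enzymes), -0.91 (transport and switches) and -0.29 (other HIF targets), and the cause was not tested. For transport and switches the median was -1.04 with a pseudocount of 0.1 and -1.0 with median-of-ratios scaling. Off chromosome 6 the count of higher enzymes was 0. Among members with under 5% of shared 50-base words, 1 enzyme was higher and 6 lower, with medians of -0.81 (enzymes) and -0.57 (other HIF targets); this split and the one by chromosome were chosen after seeing the data. The isozyme means moved by less than their SD without any 1 library. With so few libraries per genotype a mean cannot move by its full SD, so this comparison cannot show whether the shares are stable. No paired analysis was possible because the table's columns cannot be tied to sample titles and carry no replicate number of the labels; some titles of both genotypes share an ending, whose meaning is not stated. The unknown depth limits the low genes, Pfkfb4, Car9 and Eno2.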
